A study of Mus musculus with 3 samples.

Results

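Across 3 RNA-seq libraries of mouse gastric organoids, 10 genes of iron uptake, storage and release were followed. They were taken by gene symbol from the 56691 genes of the deposited table, and they are transferrin (Trf), the transferrin receptor (Tfrc), ferritin heavy chain (Fth1), ferritin light chain (Ftl1), ferroportin (Slc40a1), the divalent metal transporter DMT1 (Slc11a2), heme oxygenase 1 (Hmox1), the ferritinophagy receptor Ncoa4, the iron regulatory protein gene Ireb2 and lipocalin 2 (Lcn2). All 10 were found, and each had at least 1 FPKM (counts scaled to exonic length and to the total of the library) in every library. The set was chosen by gene name with the counts and FPKM of these same 3 libraries in view, so the levels and ratios below describe the genes and are not tested.

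The organoids are epithelial structures grown in Matrigel in a medium for proliferation, and they came from the stomach of mice about 8 weeks old. There was 1 culture and 1 library for each of 3 groups, and how many mice stood behind a culture is not given in the sources used here. The Mist1- and Mist1+ cultures came from Mist1Cre/ERT2;RFPLSL mice, are labelled WT and differ in whether the organoids were derived from Mist1- or Mist1+ cells. The Gpx4 KO-Mist1+ culture came from Gpx4F/F;Mist1Cre/ERT2;RFPLSL mice, in which Gpx4 is floxed. All groups thus carry the Cre recombinase at the Mist1 locus and the red fluorescent reporter. Mist1 is a transcription factor of the secretory chief cells of the stomach gland.

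Cells take up iron mainly as transferrin bound to its receptor, which is carried into endosomes where the metal is released and passed to the cytosol by DMT1. Iron that is not used is stored inside shells of ferritin heavy and light chains, is freed again when NCOA4 delivers ferritin to the lysosome, and leaves the cell through ferroportin. Iron regulatory proteins bind short RNA hairpins called iron-responsive elements: bound near the start of a transcript they hold back its translation, and bound beyond the stop codon they protect it from decay. Iron is also the metal that drives lipid peroxidation in ferroptosis, the form of cell death that the GPX4 enzyme holds back.

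The libraries held 14943918 to 16396693 counts, and 13351 genes reached an FPKM of 1 in at least 1 of them. The count of Gpx4 was 4399 for Mist1-, 1998 for Mist1+ and 2569 for Gpx4 KO-Mist1+, so the gene was not lower under the knockout label than in Mist1+. A count over the whole gene also takes in undeleted exons and cannot check the label, so the library labelled Gpx4 KO-Mist1+ is called the labelled knockout below, and its name serves as a label only. All 6 epithelial markers (Epcam, Cdh1, Krt8, Krt18, Krt19 and Cldn18) were present, with a summed FPKM of 3860, 2942 and 2833 in that order of libraries. Chief cell markers summed to 2018, 3506 and 2641, mucous neck cell markers to 1191, 793.8 and 2019, and pit cell markers to 713, 98.0 and 90.4. The chief cell marker Pga5 had 0 counts in every library. Whether a difference reflects fewer cells of a type or less RNA per cell cannot be told apart in such bulk samples. As each group is 1 library, no difference could be checked against replicates, and the intervals in parentheses are 95% intervals for counting error only.

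Of the 10 genes 4 held an iron-responsive element that could be found by its letters in the GENCODE M21 transcripts on GRCm38. The elements are shown because they divide the genes by the end of the transcript at which iron regulatory proteins can bind. Each was required to have the loop CAGTGN, in which N was A, C or T, and a C 6 bases before the loop. It also had to have 5 paired stem bases on either side of the loop, with pairs of G and T allowed. This pattern was held, anywhere in a transcript, by 222 of 21877 protein-coding genes, or 1.01%. The capitals mark the loop letters, and all sequences run 5′ to 3′ along the transcript.
Fth1, 5′ UTR, chr19:9982732-9982761, plus strand: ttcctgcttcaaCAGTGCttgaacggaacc
Ftl1, 5′ UTR, chr7:45459778-45459807, minus strand: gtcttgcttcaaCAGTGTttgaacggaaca
Slc40a1, 5′ UTR, chr1:45925464-45925493, minus strand: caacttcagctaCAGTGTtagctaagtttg
Tfrc, 3′ UTR, element 1, chr16:32631219-32631248, plus strand: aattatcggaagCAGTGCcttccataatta
Tfrc, 3′ UTR, element 2, chr16:32631598-32631627, plus strand: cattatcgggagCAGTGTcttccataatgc
Tfrc, 3′ UTR, element 3, chr16:32631663-32631692, plus strand: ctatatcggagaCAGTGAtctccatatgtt
Tfrc, 3′ UTR, element 4, chr16:32631710-32631739, plus strand: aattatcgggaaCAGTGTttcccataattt
Both ferritin elements lie in the 5′ UTR and are identical at 26 of their 30 bases. The ferroportin element is also in the 5′ UTR, while the 4 elements found in Tfrc lie one after another in its 3′ UTR. Slc11a2 is also known to carry an iron-responsive element but gave no match to these letters. The pattern can thus miss elements, in Slc11a2 and in other genes. RNA levels do not show translation, so the data speak to the amount of these transcripts and not to the binding of the elements.

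**Figure D1:**
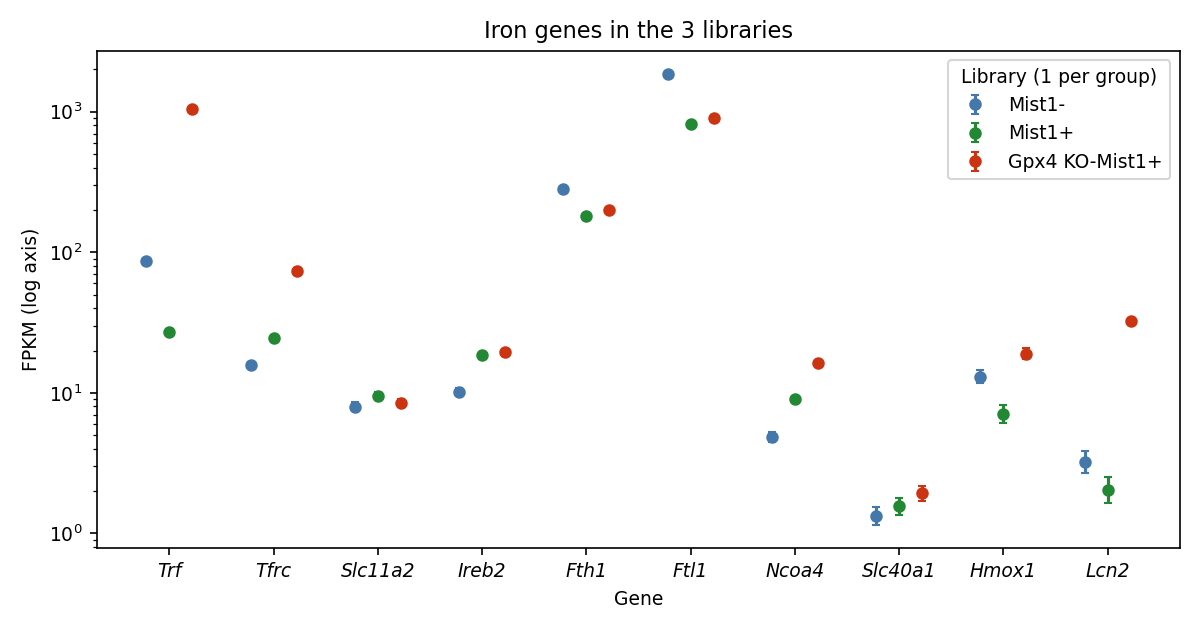
FPKM (log axis) of each of the 10 iron genes in the 3 libraries, 1 per group, with 95% Poisson intervals for counting error that are often smaller than the points. Trf was at 1045 FPKM under the Gpx4 KO-Mist1+ label and at 27.2 in Mist1+, while Slc11a2 and Slc40a1 lay close together in all 3.

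The labelled knockout held the highest level of 7 of the 10 genes, namely Trf, Tfrc, Slc40a1, Hmox1, Ncoa4, Ireb2 and Lcn2. The ferritins Fth1 and Ftl1 were highest in Mist1-, and Slc11a2 was highest in Mist1+. None was lowest in the labelled knockout. In Mist1- 5 were lowest (Tfrc, Slc40a1, Slc11a2, Ncoa4 and Ireb2) and the other 5 in Mist1+. In total 6 of the 10 genes were at least 2-fold apart in some comparison, on the log2 ratio of FPKM + 1, as were 27.7% of all 13351 genes.

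Trf encodes transferrin, the iron carrier of plasma, and stands on chromosome 9, 103204001 to 103230444, minus strand. Mist1- held 4285 of its counts, Mist1+ held 1462 and the labelled knockout held 56912. Its FPKM was 86.4 (83.8 to 89.0), 27.2 (25.8 to 28.6) and 1045 (1037 to 1054), so Mist1+ was the lowest of the libraries and the labelled knockout by far the highest. The rank of Trf among the 13351 genes went from 670 in Mist1- and 1996 in Mist1+ to 22, at which it took 0.347% (0.344% to 0.350%) of all counts of the library. Its log2 ratio of 5.21 between the labelled knockout and Mist1+ was the second largest of all genes. Against Mist1- the labelled knockout was 12.1-fold (11.7 to 12.5) higher, since Mist1+ was itself 3.17-fold (2.99 to 3.37) below Mist1-. The gene Gm20425 overlaps Trf on the same strand in GENCODE M21 and has no count used here.

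Tfrc, the transferrin receptor, stands on chromosome 16, 32608920 to 32632794, plus strand. Its counts were 1465, 2440 and 7519, here and below in the order Mist1-, Mist1+ and labelled knockout. The corresponding FPKM was 15.9 (15.05 to 16.7), 24.4 (23.4 to 25.4) and 74.1 (72.5 to 75.8). Unlike Trf, the receptor was thus lowest in Mist1- and already 1.54-fold (1.44 to 1.64) higher in Mist1+. Its log2 ratio for Mist1+ against Mist1- fell from 0.59 to 0.20 once the trend with gene length was taken out. The labelled knockout stood 4.68-fold (4.42 to 4.95) above Mist1-. The ratio of Trf to Tfrc in FPKM was 5.45, 1.12 and 14.1 in the 3 libraries. A further receptor gene, Tfr2, had 7, 7 and 9 counts, so nearly all transferrin receptor transcripts came from Tfrc.

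Slc11a2 encodes DMT1, which moves ferrous iron across the endosomal and the apical membrane, and stands on chromosome 15, 100387898 to 100425072, minus strand. Its 758, 978 and 878 counts gave an FPKM of 7.98 (7.42 to 8.57), 9.51 (8.92 to 10.1) and 8.43 (7.88 to 9.004). The levels in the 3 libraries were within 1.19-fold (1.08 to 1.31) of each other, the widest gap being Mist1+ over Mist1-. Its log2 ratio of 0.23 for Mist1+ against Mist1- went to -0.18 once the trend with gene length was taken out.

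Fth1, the ferritin heavy chain, oxidizes iron for storage and stands on chromosome 19, 9980598 to 9985098, plus strand. Counts of 14527, 10185 and 11357 were found, or an FPKM of 280.2 (275.7 to 284.8), 181 (178 to 185) and 199.7 (196 to 203). Mist1+ was 1.54-fold (1.51 to 1.58) lower than Mist1-, and the labelled knockout was 1.10-fold (1.07 to 1.13) above Mist1+. It remained 1.40-fold (1.37 to 1.44) below Mist1-.

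Ftl1, the light chain that completes the ferritin shell, stands on chromosome 7, 45457944 to 45459884, minus strand. Its counts were 37184, 17788 and 19887, and its FPKM was 1857 (1838 to 1876), 820.1 (808 to 832) and 905 (893 to 918). Mist1+ was 2.26-fold (2.22 to 2.31) lower than Mist1-, and the labelled knockout stayed 2.05-fold (2.02 to 2.09) lower than Mist1-. The pseudogene Ftl1-ps1 carried 302, 143 and 139 counts, and how reads were divided between such copies is not given in the sources used here. The light chain was 6.63 times the heavy chain in FPKM in Mist1-, 4.52 times in Mist1+ and 4.53 times in the labelled knockout. For Mist1+ against Mist1- the log2 ratios were -1.18 for Ftl1 and -0.62 for Fth1. With the length trend removed they were -0.73 and -0.65, so the 2 chains then differed little in this comparison. Fth1 and Ftl1 together held 0.346% (0.343% to 0.349%), 0.173% (0.171% to 0.175%) and 0.191% (0.188% to 0.193%) of the counts of the 3 libraries. In the first 2 libraries ferritin light chain was the most abundant of the 10 transcripts per length, and in the labelled knockout Trf stood above it, at 1.16 times its FPKM.

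Ncoa4 encodes the receptor that carries ferritin to the lysosome and stands on chromosome 14, 32159865 to 32179855, plus strand. Counts of 680, 1376 and 2504 were found, and an FPKM of 4.86 (4.50 to 5.24), 9.08 (8.60 to 9.57) and 16.3 (15.7 to 17.0). The 3 levels thus stepped up from Mist1- to Mist1+ and from Mist1+ to the labelled knockout by similar factors, 1.87-fold (1.70 to 2.05) and 1.80-fold (1.68 to 1.92). With the length trend removed the steps were unequal, at log2 ratios of 0.19 and 0.85. The excess of Fth1 over Ncoa4 narrowed: the FPKM of Fth1 was 57.7 times that of Ncoa4 in Mist1-, 20.0 times in Mist1+ and 12.2 times in the labelled knockout. The length trend was not removed from these ratios. The count of Ncoa4 is uncertain, because a pseudogene copy, Ncoa4-ps, had 72, 207 and 417 counts and could share reads with it.

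Slc40a1 encodes ferroportin, the known cellular iron exporter, and stands on chromosome 1, 45908068 to 45926523, minus strand. It was the least abundant of the 10 genes per length in every library, with 179, 227 and 285 counts and an FPKM of 1.33 (1.14 to 1.54), 1.56 (1.36 to 1.77) and 1.93 (1.71 to 2.17). The labelled knockout was 1.45-fold (1.20 to 1.76) above Mist1-, and the interval of the fold between Mist1+ and Mist1-, 1.17 (0.958 to 1.43), included equality. With the trend on gene length taken out, the log2 ratio of the labelled knockout against Mist1- went from 0.33 to -0.19, and that of Mist1+ against Mist1- from 0.14 to -0.44. The receptor exceeded the exporter by the most in the labelled knockout: the ratio of Tfrc to Slc40a1 in FPKM was 11.9 in Mist1-, 15.6 in Mist1+ and 38.4 in the labelled knockout.

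Hmox1, which breaks heme down and frees its iron, stands on chromosome 8, 75093621 to 75100589, plus strand. Counts of 342, 201 and 547 were found, and an FPKM of 13.1 (11.7 to 14.5), 7.09 (6.14 to 8.14) and 19.1 (17.5 to 20.7). Mist1+ was 1.84-fold (1.54 to 2.205) below Mist1-, and the labelled knockout was 1.46-fold (1.27 to 1.67) above Mist1-. The constitutive heme oxygenase gene Hmox2 had 1012, 829 and 776 counts.

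Ireb2 encodes IRP2, an iron regulatory protein, and stands on chromosome 9, 54863789 to 54912530, plus strand. Counts of 1447, 2872 and 3021 were found, and an FPKM of 10.2 (9.70 to 10.8), 18.7 (18.04 to 19.4) and 19.4 (18.8 to 20.1). Mist1+ was 1.83-fold (1.72 to 1.95) higher than Mist1-, and the fold between the labelled knockout and Mist1+, 1.04 (0.986 to 1.09), included equality. The log2 ratio of Mist1+ against Mist1- went from 0.81 to 0.22 with the length trend removed. The other iron regulatory protein gene, Aco1, had an FPKM of 29.1, 42.0 and 37.9, so it was the more abundant of the pair in each library. Fbxl5, the ubiquitin ligase subunit that removes IRP2 when iron is plentiful, was at 7.67, 9.79 and 22.2 FPKM.

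Lcn2, which binds the siderophores that carry iron, stands on chromosome 2, 32384633 to 32388252, minus strand. It had 126, 87 and 1401 counts, and an FPKM of 3.21 (2.68 to 3.83), 2.05 (1.64 to 2.53) and 32.6 (30.9 to 34.3). The labelled knockout was 15.9-fold (12.8 to 20.0) above Mist1+ and 10.1-fold (8.44 to 12.3) above Mist1-, and its log2 ratio of 3.46 against Mist1+ was the 14th largest of all genes. Mist1+ was 1.57-fold (1.18 to 2.09) below Mist1-. A receptor of lipocalin 2, Slc22a17, was at 1.51, 2.17 and 3.74 FPKM.

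The order of the 10 genes by FPKM was led by Ftl1, Fth1, Trf and Tfrc in both Mist1- and Mist1+. In the labelled knockout the order began with Trf, Ftl1, Fth1, Tfrc and Lcn2, with Lcn2 above Ireb2, Hmox1, Ncoa4 and Slc11a2, which all stood above it in both other libraries. Most neighbours in these orders were apart beyond their counting intervals. The intervals overlapped for Slc11a2 and Ncoa4 and for Lcn2 and Slc40a1 in Mist1+, and for Ireb2 and Hmox1 in the labelled knockout.

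**Figure D2:**
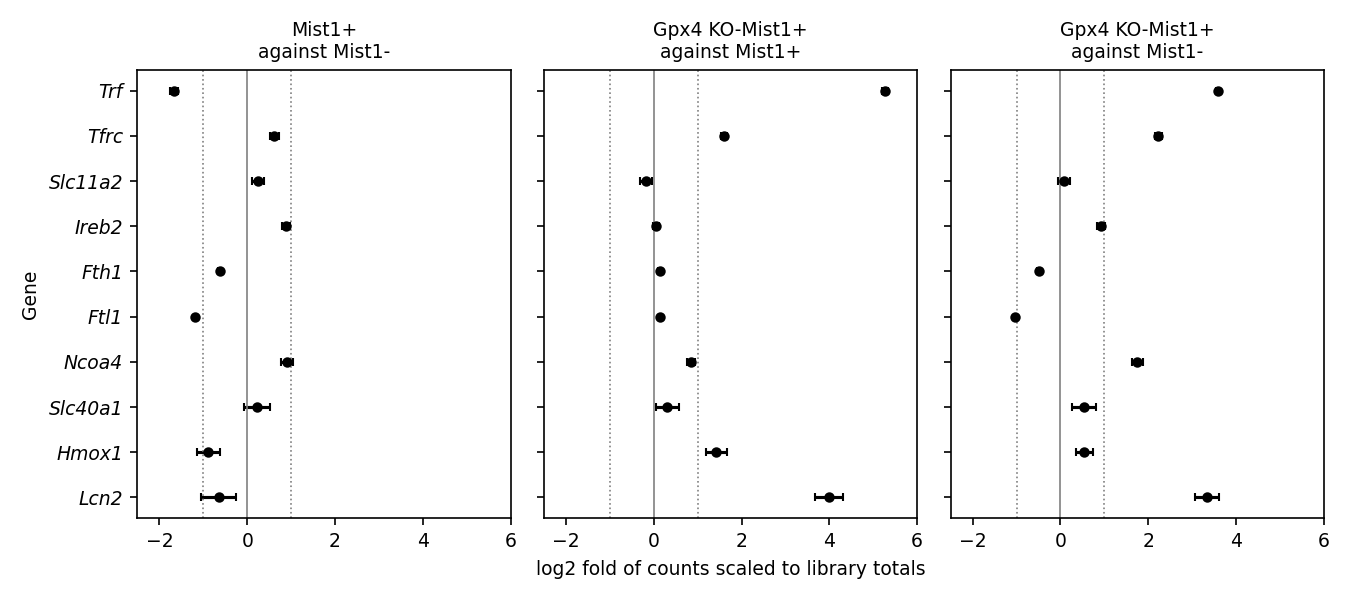
log2 fold of counts scaled to the library totals for the 10 iron genes in the 3 comparisons, with 95% intervals for counting error as bars; dotted lines mark 2-fold. In the middle panel Trf, Lcn2, Tfrc and Hmox1 lie beyond 2-fold on the higher side, and none lies beyond 2-fold on the lower side.

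The comparison of Mist1+ with Mist1- set organoids derived from Mist1+ cells against those derived from Mist1- cells. Bhlha15, the gene of Mist1, had 282 counts in Mist1-, 580 in Mist1+ and 370 in the labelled knockout, so its transcript was also present in Mist1-. Of the 10 iron genes 2 were at least 2-fold apart, Trf and Ftl1, both lower in Mist1+. Over all 13351 genes 13.6% were called in either direction and 5.73% were called lower, so a count of 2 in 10 is near the background. There were 5 genes above 0 and 5 below, and their median log2 ratio was -0.16 beside 0.15 for all genes. The iron genes lined up by exonic length here. The 5 shorter ones, Ftl1 (1340 bases), Hmox1 (1751), Lcn2 (2623), Trf (3320) and Fth1 (3469), were all lower in Mist1+. The 5 longer ones, Tfrc (6185), Slc11a2 (6354), Slc40a1 (9000), Ncoa4 (9365) and Ireb2 (9479), were all higher. Spearman's rho between length and log2 ratio was 0.85 over the 10 iron genes and 0.49 over all genes, where the median log2 ratio ran from -0.36 in the shortest 2671 genes to 0.63 in the longest 2670. These are descriptions across genes of the same libraries. With the length trend removed by a lowess curve, Trf kept its log2 ratio of -1.63. Ftl1 went from -1.18 to -0.73 and was no longer called.

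**Figure D3:**
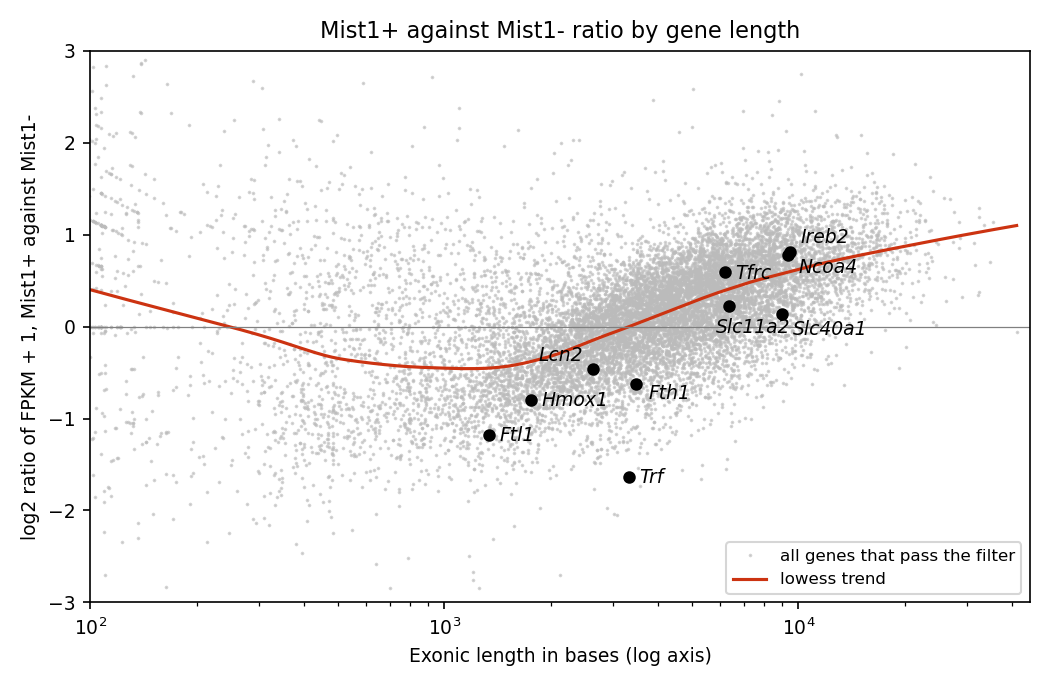
log2 ratio of FPKM + 1 for Mist1+ against Mist1- plotted over exonic length in bases (log axis), with all genes in grey, the lowess trend in red and the 10 iron genes in black; 189 of the 13351 genes lie outside the axes. The iron genes up to the 3469 bases of Fth1 lie below 0 and the longer ones above it, and Trf lies farthest from the trend.

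The labelled knockout was compared with Mist1+ next, the pair of cultures that both came from Mist1+ cells and differ in the floxed Gpx4 gene. The iron carrier, its receptor, heme oxygenase and lipocalin 2 were higher in the labelled knockout: 4 of the 10 genes (Trf, Tfrc, Hmox1 and Lcn2) were called, all higher, beside 7.55% of all genes called in either direction 4.81% called higher and 2.74% called lower. There were 9 genes above 0, and Slc11a2 alone was below, at -0.16. The median log2 ratio was 0.49 over the iron genes and -0.09 over all genes. The ferritins, ferroportin and Ireb2 were not called, with log2 ratios of 0.14 for Fth1, 0.14 for Ftl1, 0.19 for Slc40a1 and 0.05 for Ireb2. Ncoa4, at 0.78, lay below the 2-fold line. Spearman's rho between length and log2 ratio was -0.02 over all genes and -0.41 over the 10 iron genes here, and the same 4 genes were called with the length trend removed. A pseudocount of 5 ended the call of Hmox1, at 0.99. The share of counts from mitochondrial genes was 4.26% in Mist1+ and 5.14% in the labelled knockout, and its part in these values was not tested.

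Between the labelled knockout and Mist1- 5 of the 10 iron genes were called, beside 20.2% of all genes in either direction, 11.6% higher and 8.56% lower. Trf, Tfrc, Ncoa4 and Lcn2 were higher, and Ftl1 was lower. The median log2 ratio was 0.69 over the iron genes and 0.09 over all genes. The 3 comparisons share their libraries, so their calls are not separate evidence. Trf and Lcn2 were beyond 2-fold from both other libraries, as was Tfrc, while Hmox1 had a log2 ratio of 0.51 against Mist1- and Ncoa4 passed the line only over the wider distance. Mist1- and the labelled knockout also differ along gene length, with a Spearman's rho of 0.39 over all genes, and without that trend Ftl1 went from -1.04 to -0.59 and Ncoa4 from 1.56 to 1.02.

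Other genes of iron and heme handling were read from 7 lists, of which 81 genes passed the filter. Against Mist1+ the labelled knockout had 7 of them called higher and 0 lower, beside 4.81% and 2.74% of all genes, and their median log2 ratio was -0.05 beside -0.09 for all genes. In either direction 7.55% of all genes were called, so 7 of 81 is near the background. Among genes of uptake and reduction 2 of 12 were called, both higher, where 4.81% of all genes were. Cybrd1, which encodes a ferric reductase, had an FPKM of 62.6 in Mist1-, 21.3 in Mist1+ and 156 in the labelled knockout. Ltf, the gene of the iron-binding lactoferrin, had 16.8, 9.81 and 43.3. Like Trf, both were lowest in Mist1+ and highest in the labelled knockout. The endosomal reductase gene Steap3 had 12, 29 and 24 counts, and the zinc and iron importer gene Slc39a8 was at 7.45, 11 and 20.4 FPKM.

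In the list of iron export and the hepcidin axis 2 of 9 genes were called, both higher, beside the same 4.81% of all genes. Cp encodes ceruloplasmin, which oxidizes iron as it leaves the cell through ferroportin, and it was at 3.62, 2.80 and 31.8 FPKM, a log2 ratio of 3.11 between the labelled knockout and Mist1+. Another such oxidase gene, Heph, had 0 counts in every library. Bmp2, a ligand that acts on hepcidin in the liver, was at 2.52, 2.73 and 8.96 FPKM. Hepcidin itself, Hamp, had 8, 6 and 3 counts, and Hfe was at 2.32, 2.40 and 1.08 FPKM.

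In the same comparison of the labelled knockout with Mist1+, 7.55% of all genes were called in either direction and 4.81% were called higher. Of the 7 genes of iron sensing that passed the filter, Fbxl5 alone was called, with a log2 ratio of 1.10. Of 11 genes of iron chaperones and storage 0 were called. Their main members, the iron chaperone genes Pcbp1 and Pcbp2, were at 224, 201.8 and 142 FPKM and at 48.4, 58.9 and 64.0 FPKM. Among 12 genes of heme handling Flvcr2 was called, with 14, 17 and 160 counts, and none of 8 genes of heme synthesis was called. Among 22 genes of mitochondrial iron and iron-sulfur assembly Slc25a37, the gene of mitoferrin 1, was called at 8.26, 13.4 and 28.1 FPKM. The counts of called genes in these short lists are near the background.

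For Mist1+ against Mist1-, 6 of the 81 genes were called, beside 13.6% of all genes. Bach1 and Herc2 were higher, and Cybrd1, Id1, Bola2 and Cisd3 were lower. For the labelled knockout against Mist1- 12 were higher and 8 were lower, beside 11.6% and 8.56% of all genes. The mitochondrial list, with 22 genes that passed the filter, held 5 of the lower ones (Glrx5, Iscu, Cisd1, Bola3 and Lyrm4). With the length trend removed 3 of the 22 were called lower, beside 813 of all 13351 genes.

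**Figure D4:**
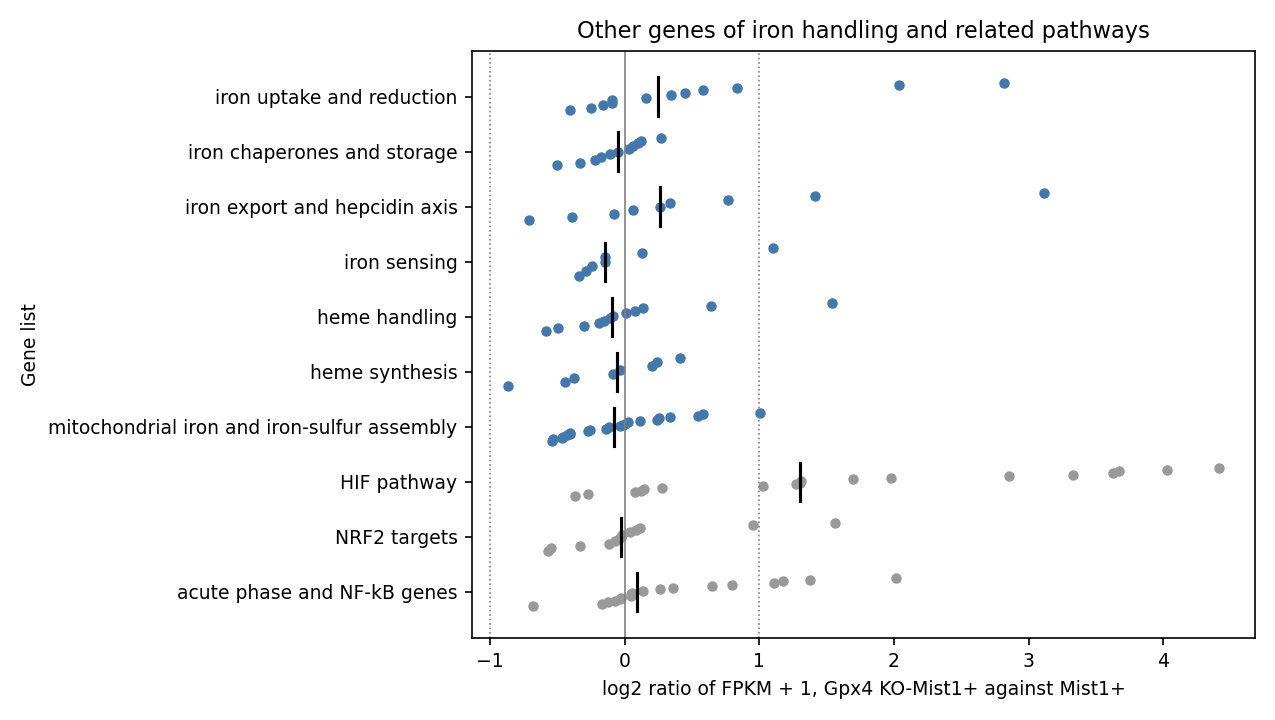
log2 ratio of FPKM + 1 for the labelled knockout against Mist1+ in the 7 iron and heme lists (blue) and 3 related lists (grey), 1 point per gene that passed the filter, with the median of each list as a black bar and dotted lines at 2-fold. Most iron and heme genes lie near 0, and the HIF pathway list has its median at 1.30.

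Genes of 3 pathways known to act on iron genes were set beside them. Of 18 genes of the HIF pathway, the transcriptional response to low oxygen, 12 were called higher in the labelled knockout than in Mist1+ and 0 lower, beside 4.81% and 2.74% of all genes. Their median log2 ratio was 1.30, beside -0.09 for all genes. Adm was at 3.84, 0.76 and 27.7 FPKM, Car9 at 64.9, 22.1 and 283.4, Egln3 at 43.8, 15.04 and 203.5, and Ero1a at 34.95, 20.8 and 464.8. Adm, Car9, Egln3 and Ero1a were thus lowest in Mist1+ and highest in the labelled knockout, the order that Trf, Hmox1 and Lcn2 also had. For Mist1+ against Mist1- 6 of the 18 were called lower, beside 5.73% of all genes. The genes of the oxygen-sensitive subunits were lowest in Mist1- instead: Hif1a was at 8.66, 15.6 and 17.1 FPKM and Epas1 at 2.17, 4.07 and 5.14. Of 13 NRF2 targets, genes of the antioxidant response to which Hmox1 and the ferritins are often counted, Slc7a11 alone was called higher and the median was -0.03. Nqo1 was at 13.7, 4.18 and 9.03 FPKM, and Nfe2l2, the gene of NRF2, at 196, 185.6 and 124.7. Of 18 acute phase and NF-kB genes 4 were called higher (Lbp, C3, Tnf and Il1a), beside 4.81% of all genes, with a median of 0.10. C3 was at 8.22, 11.3 and 48.6 FPKM. The part of these pathways in the levels of the iron genes was not tested.

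Promoter windows from RefSeq (GRCm38.p6, 250 bases before to 50 after a start) were matched for Tfrc, Fth1, Ftl1, Ncoa4, Ireb2 and Lcn2. They were searched on both strands for the letters ACGTG and GCGTG, the cores of the HIF binding motif, and TGACNNNGC, the core of the antioxidant response motif. ACGTG was held by 19.6% of the 32851 windows searched, GCGTG by 32.4% and TGACNNNGC by 12.4%. These shares are per window, while Ncoa4 had 3 windows, Tfrc and Fth1 had 2 each and the others 1 each. Windows of Tfrc and Ncoa4 held both ACGTG and GCGTG. A single window of Fth1 and that of Ftl1 held GCGTG, and a single window of Ncoa4 also held TGACNNNGC. The Tfrc windows overlap and share their ACGTG site. The windows of Ireb2 and Lcn2 held none of the 3 motifs. Such letters are common, and a match is a description of the window only.

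Several iron genes have known roles in cells outside the stomach epithelium, so markers of those cells were read too. Trf is a main product of hepatocytes. The 6 hepatocyte markers had a summed FPKM of 691.7, 218 and 607, most of it from Apoa1 at 652, 189.8 and 586. Albumin, Alb, was at 28.8, 22.3 and 15.9 FPKM. The markers did not go one way for the labelled knockout against Mist1+. The log2 ratio was 1.62 for Apoa1 and 0.34 for Serpina1a. It was -0.46 for Alb, -0.08 for Ttr, -0.23 for Ahsg and -0.39 for Hamp. Lcn2 and Ltf are also granule genes of neutrophils. Among the other neutrophil markers S100a8 had 0, 0 and 1 counts, S100a9 had 1, 0 and 0, and Mpo had 0 in each, so these were at or near 0 in every library. The 7 markers of macrophages and other leukocytes summed to 45.1, 37.0 and 57.0 FPKM, most of it from Cd14 at 40.6, 31.85 and 32.5. Ptprc had 1, 1 and 0 counts and Itgam had 0 in each, while Cd68 had 82, 103 and 503. No erythroid marker exceeded 7 counts, and no fibroblast or endothelial marker exceeded 12. Of the 4 mucous neck cell markers Aqp5 (146, 97.2 and 568 FPKM) and Gkn3 (861, 624 and 1319.5 FPKM) were lowest in Mist1+ and highest in the labelled knockout, as Trf was. Tff2 was highest in Mist1-, at 178 against 52.5 and 110.6 FPKM, and Muc6 was at 5.71, 19.96 and 20.6. The part of these cells in the level of Trf was not tested.

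Genes most like each iron gene in pattern were sought among the 8662 genes with a symbol that reached 5 FPKM in some library, by the distance between pairs of log2 ratios over the 3 libraries. For Trf no gene lay within 0.5, and the nearest included Gm8210 (1.06), Adm (1.20), Ero1a (1.21) and Cnfn (1.33). Tfrc had 39 genes within that distance, led by Ppargc1a (0.05), the stem cell gene Lgr5 (0.14) and Tnfrsf19 (0.20). Lgr5 was at 6.40, 10.9 and 37.0 FPKM. Lcn2 had 8, with Bst1, Ptges and Tigit the nearest. Of the genes named so far, Gm8210, Adm, Cnfn, Bst1, Ptges and Tigit reached 5 FPKM only in the labelled knockout. In Mist1+ Gm8210 and Cnfn had 0 counts, Bst1 had 5 and Ptges had 4. The distances of these 4 genes thus depend on the 1 added to the FPKM. Hmox1 had 89 and was nearest to Pkm, Slc25a48 and Pgm1, of which Pkm is a gene of glucose breakdown. Ncoa4 had 334, led by Klhl24, Lpgat1 and Crim1, and Ftl1 had 618, led by Cxcl5, Gm10288 and Gm5963. With only 3 libraries, patterns with small ratios such as those of Ftl1 and Ncoa4 are shared by many genes.

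The nearest expressed gene on either side of Trf on chromosome 9 did not share its ratio. For the labelled knockout against Mist1+ the log2 ratio was -0.49 for Srprb and -0.46 for Topbp1. Over the 4 genes called in that comparison, the 24 nearest expressed genes, 3 on each side of each, had a median of -0.03. Muc4, 103.4 kb from Tfrc with Tnk2 between them, was the 1 called higher, at 1.11, and Mcm5, 9 kb from Hmox1, the 1 called lower, at -1.15. For Mist1+ against Mist1-, the 12 nearest expressed genes of Trf and Ftl1 had a median of 0.15. Bax, 1.8 kb from Ftl1, was the 1 called lower, at -1.38, beside 5.73% of all genes. None was called higher, beside 7.88% of all genes. Gys1, at 1.3 kb on the other side of Ftl1, had a log2 ratio of 0.17.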

How the data were processed

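RNA from 3 organoid cultures was sequenced, 1 library for each group. Per the submitters' processing notes, cutadapt 1.9.1, HISAT2 2.2.1, HTSeq 0.6.1 and the build GRCm38.p5 were used; the annotation release is not given in the sources used here. Per the file headers, the deposited table gives for each gene a count per library, its exonic length in bases (the column of another kind), and an FPKM, which the authors scaled to that length and to the column total.

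Here, a gene was kept if its FPKM reached 1 in some library (13351 genes). Ratios are log2 of FPKM + 1, and a gene at least 2-fold apart on that scale is called. Folds are counts over column totals, with exact binomial 95% intervals; counts and FPKM have exact Poisson intervals, and shares exact Clopper-Pearson ones. Reads carry no molecular identifiers, so these cover counting error only. With 1 library per group no test was made. Gene positions are from GENCODE M21 (GRCm38), matched by identifier for 52073 of 56691 genes; the table's own starts and ends differed from it for all 10 iron genes, although the spans were equal. The 7 iron and heme lists and 3 related ones, and the rule that names all 10 genes, up to 4 called genes per list and a few set genes, were written with earlier results of these data known, as were the 10 genes. A few other genes (Hmox2, Tnf, Lgr5, Pkm and pseudogenes among them) were named after their values were seen. A few genes that the rule takes are not reported here. The software was scipy 1.17.1, statsmodels 0.14.6, pandas 2.3.3 and numpy 2.4.6 on Python 3.11.15, and the scripts were tested on simulated data. Alternatives were pseudocounts of 0.1 and 5, other filters, TPM, median ratio and CPM scaling, limits of 1.5-fold and 4-fold, and removal of the length trend (lowess, fraction 0.3).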

Additional observations from a re-analysis of the deposited data

How the results depend on the processing

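No paired analysis was possible because each group has 1 library, and no library could be left out. Of the 30 log2 ratios of the 10 iron genes, 26 kept their sign under every alternative. The other 4 were small: Slc40a1 and Slc11a2 turned negative with the length trend removed, both for Mist1+ against Mist1- (-0.44 and -0.18) and for the labelled knockout against Mist1- (-0.19 and -0.25), the last also with median ratio scaling. Trf between the labelled knockout and Mist1+ stayed between 5.03 and 5.34, Lcn2 between 2.41 and 3.93, Tfrc between 1.43 and 1.68, and Hmox1 between 0.99 (pseudocount of 5, no longer called) and 1.41.

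Iron genes called numbered 2 for Mist1+ against Mist1-, and 7 at 1.5-fold, 0 at 4-fold and 1 with the length trend removed, where 38.7%, 0.891% and 8.23% of all genes were called. TPM scaling, which called 27.0% of all genes, called Ireb2 and Ncoa4 higher and Trf lower there, and median ratio scaling added Hmox1 as lower. For the labelled knockout at 4-fold, the count was 2 instead of 4 against Mist1+, beside 1.13% of all genes. Against Mist1- it was 3 instead of 5, beside 1.81% of all genes. At 2-fold against Mist1-, TPM scaling called Ireb2 in place of Ftl1, beside 30.1% of all genes. Of the 81 other iron pathway genes 6 were called for Mist1+ against Mist1-, beside 13.6% of all genes. The number was 10 with a pseudocount of 0.1, 3 with one of 5, 10 on TPM and 28 at 1.5-fold. Of all genes 23.3%, 3.93%, 27.0% and 38.7% were called at these settings. It was 0 at 4-fold and 3 with the length trend removed, beside 0.891% and 8.23% of all genes. Against Mist1+ the labelled knockout had 7 called, beside 7.55% of all genes. It had 3 with a pseudocount of 5, 13 at 1.5-fold and 3 at 4-fold, beside 2.22%, 21.9% and 1.13%. Against Mist1- it had 20 called, beside 20.2% of all genes. It had 8 with a pseudocount of 5 and 41 at 1.5-fold, beside 6.84% and 45.8%. At 4-fold it had 1 and with the length trend removed 10, beside 1.81% and 14.0%.

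Over all genes the comparison of Mist1+ with Mist1- called 1052 higher and 765 lower. That split became 3101 to 510 on TPM, 643 to 1219 with median ratio scaling, 1413 to 671 on CPM and 129 to 396 with a pseudocount of 5, and the median of all genes moved from 0.15 to 0.47 on TPM and to -0.02 with median ratio scaling. For the labelled knockout against Mist1+ the split of 642 to 366 became 884 to 689 on TPM and 700 to 291 with median ratio scaling. Against Mist1- the split of 1553 to 1143 became 3223 to 797 on TPM and 1273 to 1504 with median ratio scaling, and the median went from 0.09 to 0.37 on TPM. Counting depth limited Slc40a1 and Lcn2 most, with as few as 179 and 87 counts in a library.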
